A study of Mus musculus with 10 samples.

Results

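Cytosolic ribosomal protein genes were taken as the rows of both expression tables whose symbol is Rpl or Rps with a number and at most 1 further letter, Rplp0 to Rplp2, or Rpsa. This gave 81 of 23235 genes, 49 of the large and 32 of the small ribosomal subunit. The samples were GFP-positive cells of the embryonic mouse cortex. An shRNA against Chd8, a chromatin remodeler, or a control shRNA had been brought into radial glia by electroporation in utero on embryonic day 13, and the sorted cells were collected on embryonic day 15. The new set held 3 Chd8 knockdown libraries made with shRNA1 and 3 control libraries (replicates 10, 11 and 12 of each). The first set held 2 Chd8 knockdown libraries made with shRNA2 and 2 control libraries (replicates 1 and 2 of each). Each replicate pooled the cortices of 3 to 5 embryos. Between the sets shRNA, batch and table all changed at once, so their effects cannot be told apart. Neither the mouse strain nor the control shRNA's sequence is given in the labels. The sort took every GFP-positive cell, so progenitors and their neuronal daughters were measured together.

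The ribosome is built from a small subunit, which binds the mRNA and reads its codons, and a large subunit, which joins the amino acids. Each subunit is an rRNA core covered by ribosomal proteins, nearly all of which are present once per ribosome, so cells make them in closely matched amounts. Their mRNAs are among the most abundant of any cell and carry a terminal oligopyrimidine tract, a C at the first base followed by a run of C and T, through which the mTOR pathway and LARP1 control their translation. Growing and dividing cells are known to need more new ribosomes than postmitotic cells do.

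The promoters of 6 genes that the results below turn on are shown for the oligopyrimidine tract at their start. RefSeq promoter sequences of the mouse build GRCm38.p6 matched 60 of the 81 genes by symbol. Each line gives 40 bases before and 20 bases from the annotated transcription start, read on the gene's own strand, with the longest run of C and T that begins with C in capitals. Rps2 lies at chr17:24720023-24720082 on the plus strand, Rps10 at chr17:27635225-27635284 on the minus strand, and Rpl13 at chr8:123102310-123102369 on the plus strand. Rplp2 lies at chr7:141447611-141447670 and Rpl22 at chr4:152325686-152325745, both on the plus strand, and Rps27 at chr3:90213629-90213688 on the minus strand. Rpl22 has 2 listed starts, of which the first is shown.
Rps2: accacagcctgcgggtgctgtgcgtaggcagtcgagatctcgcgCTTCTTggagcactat
Rps10: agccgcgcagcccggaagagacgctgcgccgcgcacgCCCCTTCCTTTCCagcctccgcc
Rpl13: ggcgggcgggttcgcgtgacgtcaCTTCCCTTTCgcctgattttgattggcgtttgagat
Rplp2: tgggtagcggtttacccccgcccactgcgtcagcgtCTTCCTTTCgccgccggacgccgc
Rpl22: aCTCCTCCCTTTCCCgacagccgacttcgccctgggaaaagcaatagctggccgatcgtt
Rps27: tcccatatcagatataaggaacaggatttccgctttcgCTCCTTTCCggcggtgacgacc

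In Rps2, Rps10, Rplp2 and Rps27 a C followed by at least 4 bases of C or T began within 5 bases of the annotated start, while the run of Rpl13 began 16 bases and that of Rpl22 39 bases before it. Such a run near the start was found in 27 of the 60 matched genes (45%), against 18.5% of the 27025 promoters of all genes. Other motifs were searched on both strands from 250 bases before to 50 bases after the start. CCGGAA, the core of ETS family sites, was in 50% of the ribosomal protein promoters, against 15.2% of all promoters. GGGCGG, the GC box, was in 58.3%, against 35.9% of all promoters. AAGATGGC, a YY1 site, was in 6.67% of them, against 2.88% of all promoters, and TATAAA, the TATA box, in 8.33%, against 14.2% of all promoters. Matches of different motifs were counted apart, also where they overlapped.

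Values are FPKM, the authors' fragment numbers scaled by transcript length and by mapped fragments, so levels can be set side by side between genes of a table. Of the 81 genes, 78 (46 large and 32 small subunit) had a mean of at least 1 FPKM in each table and were tested. The 3 left out are tissue-restricted copies known from muscle and testis, Rpl3l, Rpl10l and Rpl39l, which in the new set were at 0 in every library but 1, where Rpl3l stood at 0.0425 FPKM. Their first-set maxima were 0.38, 1.27 and 0.645 FPKM, each in a knockdown library. Olfactory receptor genes, which cortex does not use, averaged 0.672 and 0.557 FPKM in the first-set knockdown libraries. The part of this background in the 3 maxima was not tested. The remaining 78 had means of 18.1 FPKM (Rpl26) to 1584.6 FPKM (Rpl41) in the new set and of 19.8 FPKM (Rps15a) to 5394.9 FPKM (Rpl35) in the first set, with medians of 512 and 707 FPKM. The order of levels was much the same in both tables (Spearman's rho 0.826 over the 78 genes, as a description, since both tables rest on the same transcript lengths).

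The most abundant genes did not differ between the groups beyond their spread. Rpl41, whose product is the smallest ribosomal protein, averaged 1715.4 ± 30.9 FPKM in new-set knockdown and 1453.8 ± 367 FPKM in new-set control libraries (SD, n = 3 each). Rpl35, which lies beside the exit of the nascent chain, averaged 4961.3 ± 1048.8 FPKM in first-set knockdown and 5828.5 ± 216 FPKM in first-set control libraries (SD, n = 2 each). In the small subunit Rps29 led the new set with 1242.4 ± 107 FPKM in knockdown and 1051.9 ± 255 FPKM in control libraries. Rps14 led the first set with 2422.6 ± 589 FPKM in knockdown and 2362.3 ± 58.1 FPKM in control libraries. Ribosomal protein genes have many near-identical processed copies in the genome, and no source used here says how reads shared with them were counted, so single values such as the low levels of Rpl26 and Rps15a are uncertain.

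Chd8, the target of the shRNAs, was lower in every knockdown library than in every control library of its set. It stood at 2.09, 1.84 and 1.92 FPKM in new-set knockdown and at 3.59, 3.30 and 4.02 FPKM in new-set control libraries (log2 fold change −0.65, limma adjusted p = 0.0213). That call was lost without any 1 library other than control 11 (adjusted p = 0.053 to 0.0829). The first set had it at 8.55 and 9.23 FPKM in knockdown and at 12.4 and 13.8 FPKM in control libraries (−0.51, adjusted p = 0.152). Relative depth, read from values under 0.3 FPKM, was 0.958 to 1.39 times that of control 10 in new-set libraries. Against control 1 it was 0.528 and 0.529 times in first-set knockdown libraries and 1.22 times in control 2. First-set knockdown libraries also stood apart in the 1096 olfactory receptor genes, which cortex does not use. The mean of these genes was 0.672 and 0.557 FPKM there, against at most 0.00817 FPKM in the other 8 libraries. The effect of this background on the depth values of the first set was not tested. Among the sorted cells' markers, cortical neuron genes (14 genes) summed to 3517 to 4363 FPKM in new-set knockdown and 2471 to 2951 FPKM in new-set control libraries, and the 16 radial glia genes to 1259 to 1856 FPKM in knockdown and 1591 to 2062 FPKM in control libraries. Markers of endothelium, oligodendrocyte precursors and meninges were low: each list summed to at most 2.72 FPKM in any new-set library. In the first set each summed to at most 9.59 FPKM in knockdown and 3.88 FPKM in control libraries. Choroid plexus genes were not low throughout the new set: their sum reached 44.1 FPKM in knockdown 10, where Ttr alone stood at 42.9 FPKM. Ttr stood at 0 and 0.0716 FPKM in knockdown 11 and 12 and at most at 0.0628 FPKM in new-set control libraries. The 1 choroid plexus gene tested in the new set was not called.

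In the new set no ribosomal protein gene passed the test, yet nearly all stood slightly above 0. The log2 fold change, knockdown over control on log2(FPKM + 1), was positive for all 46 large and for 30 of 32 small subunit genes, with medians of 0.25 and 0.24. After rescaling to the total outside small RNA and ribosomal protein genes 44 and 29 were positive (medians 0.13 and 0.11), and after quantile normalization 38 and 24 (medians 0.075 and 0.037). Over all 11291 genes tested the median was 0.018, and 8.99% were called at an adjusted p under 0.05, 3.84% as higher and 5.15% as lower (limma, Benjamini-Hochberg adjustment over all of them). Of the 78 genes 0 were called. An unadjusted limma p under 0.05 was found for 6, all of the large subunit. That is below even the 8.99% of all genes that passed after adjustment. In a bulk library a change in the mix of cells and a change of RNA per cell cannot be told apart.

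The control libraries of the new set were not alike. Summed over the 81 genes, the new-set knockdown libraries held 45728, 47021 and 45650 FPKM, and the control libraries 34857, 49318 and 34827 FPKM. The knockdown libraries were alike, and control 11 lay above all of them while controls 10 and 12 lay far below. As a share of all FPKM outside microRNA and small nucleolar RNA genes, this was 8.07%, 8.01% and 8.14% in knockdown, and 7.01%, 8.75% and 6.90% in control libraries. Both subunits moved together between libraries: the ratio of summed large to summed small subunit genes was 1.37, 1.31 and 1.34 in knockdown, and 1.37, 1.32 and 1.34 in control libraries.

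**Figure D1:**
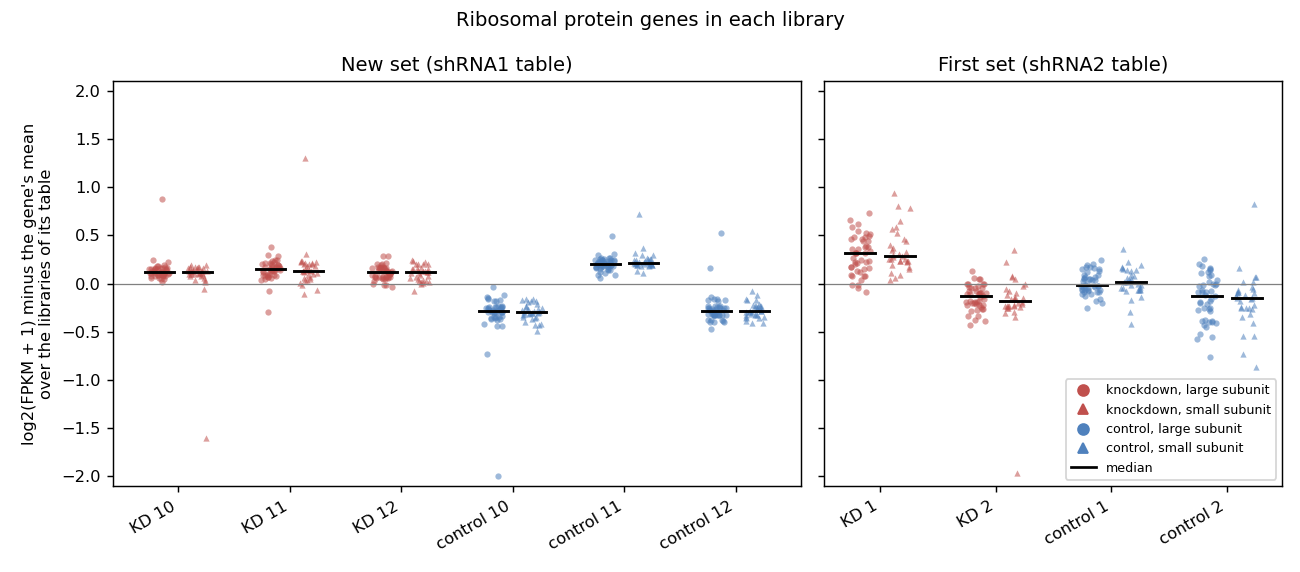
Deviation of each of the 78 tested ribosomal protein genes from its mean over the libraries of its table, in log2(FPKM + 1), by library; circles are large and triangles small subunit genes, red knockdown and blue control, black lines medians. The medians over both subunits are 0.12, 0.14 and 0.12 in new-set knockdown and −0.29, 0.21 and −0.28 in new-set control libraries, and 0.29 and −0.16 in first-set knockdown and −0.003 and −0.14 in first-set control libraries.

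The same pattern was found gene by gene. Controls 10 and 12 lay below the other 4 libraries in 74 of the 78 genes, the exceptions being Rpl26, Rpl30, Rpl39 and Rps27. Control 11 lay above all 3 knockdown libraries in 51 of the 78, and its median ratio to the mean of controls 10 and 12 was 1.42. Without control 11, 66 of the 78 genes were called, all higher in the knockdown (39 of 46 large and 27 of 32 small subunit genes), against 16.7% of all genes called and 9.31% called higher. The medians over all 46 and 32 were then 0.41 and 0.40. Leaving out any other library of the new set gave 0 calls. The called count therefore rested on 1 control library, which does not differ from the others in its label.

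Other highly expressed genes shared part of the difference between control libraries. The 988 other genes at 100 FPKM or more had median deviations of 0.069, 0.13 and 0.049 in knockdown and −0.15, 0.063 and −0.13 in control libraries. The 1317 other genes with transcripts under 800 nucleotides had 0.036, 0.035 and 0.037 in knockdown and −0.073, 0.069 and −0.050 in control libraries. Both groups were lowest in controls 10 and 12, as the ribosomal protein genes were, with smaller differences. Radial glia and neuron markers did not set control 11 apart in this way: the radial glia median deviated by 0.20, 0.22 and 0.40 in controls 10, 11 and 12 and the neuron median by −0.10, −0.24 and −0.43. The part of any of these in the ribosomal protein values was not tested.

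Rplp2, an acidic protein of the stalk that recruits translation factors to the large subunit, stood at 752, 780 and 759 FPKM in new-set knockdown and at 487, 730 and 525 FPKM in control libraries. Every knockdown library was above every control library, but control 11 came close (log2 fold change 0.42, SE 0.157, limma adjusted p = 0.122). Rpl22, an RNA-binding protein of the large subunit that is dispensable for most cells, stood at 65.5, 74.3 and 64.6 FPKM in knockdown and at 49.5, 64.3 and 48.4 FPKM in control libraries. The groups were again apart, by a margin of less than 1 FPKM (0.34, SE 0.122, adjusted p = 0.112). Rpl22 was the 1 gene called when the replicate number was a block (adjusted p = 0.0256), in a fit that called 21.7% of all genes.

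Rpl7, which lies beside the smallest rRNA of the large subunit, stood at 699, 721 and 713 FPKM in knockdown and at 519, 679 and 530 FPKM in control libraries (0.31, SE 0.128, adjusted p = 0.144). Rpl28 stood at 462, 456 and 465 FPKM in knockdown and at 342, 452 and 349 FPKM in control libraries (0.29, SE 0.124, adjusted p = 0.163). With Rplp2 and Rpl22 these are the 4 large subunit genes whose groups were apart, and no small subunit gene was among them. Over all tested genes 18.6% were apart with the knockdown higher, so 4 of 78 is below the background share. No ribosomal protein gene was apart with the knockdown lower, against 17.1% of all tested genes.

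In the remaining large subunit genes the groups overlapped. Rpl23a, a docking site for factors that meet the nascent chain, stood at 923, 926 and 884 FPKM in knockdown and at 608, 889 and 601 FPKM in control libraries (0.41, SE 0.164, adjusted p = 0.142). Rpl15 stood at 371, 402 and 368 FPKM in knockdown and at 276, 374 and 271 FPKM in control libraries (0.33, SE 0.135, adjusted p = 0.152). Rplp0, the base of the stalk, stood at 684, 753 and 640 FPKM in knockdown and at 544, 670 and 470 FPKM in control libraries (0.31, adjusted p = 0.192). In each of the 3 genes control 11 lay within the range of the knockdown libraries and the other controls lay below it. Rpl5, which with Rpl11 carries the smallest rRNA into the large subunit and binds Mdm2, stood at 151, 160 and 161 FPKM in knockdown and at 130, 167 and 117 FPKM in control libraries (0.21, adjusted p = 0.307).

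The values nearest to 0 in the large subunit were those of Rpl4 and Rpl10. Rpl4, a protein of the exit tunnel, stood at 529, 550 and 520 FPKM in knockdown and at 512, 610 and 441 FPKM in control libraries (0.04, adjusted p = 0.846). Rpl10, which joins the large subunit last and is needed for it to mature, stood at 592, 587 and 554 FPKM in knockdown and at 515, 667 and 506 FPKM in control libraries (0.05, adjusted p = 0.827). Both turned below 0 when libraries were rescaled to the same total or quantile normalized. Rpl26 had the largest fold change of the new set, 0.96, from 1 library: it stood at 27.9, 19.4 and 16.7 FPKM in knockdown and at 1.87, 21.1 and 21.5 FPKM in control libraries (SE 0.710, adjusted p = 0.390).

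In the small subunit of the new set Rps26, which lines the channel where the mRNA leaves, had the largest fold change. It stood at 687, 705 and 703 FPKM in knockdown and at 432, 709 and 489 FPKM in control libraries (0.39, SE 0.176, adjusted p = 0.175). Rps2, at the channel where the mRNA enters, stood at 932, 1021 and 835 FPKM in knockdown and at 711, 892 and 630 FPKM in control libraries (0.33, SE 0.155, adjusted p = 0.194). Control 11 alone reached the knockdown range of Rps26 and Rps2. Rps19, a gene mutated in Diamond-Blackfan anaemia in humans, stood at 1037, 1091 and 1014 FPKM in knockdown and at 800, 1149 and 759 FPKM in control libraries (0.24, adjusted p = 0.368). Rps10, which is ubiquitinated on stalled ribosomes in human cells, stood at 474, 531 and 508 FPKM in knockdown and at 389, 561 and 384 FPKM in control libraries (0.20, adjusted p = 0.405).

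Rps27 and Rps27l, closely related zinc finger proteins, were the 2 genes of the new set below 0. Rps27 varied more between libraries of a group than between the groups, with 149, 1126 and 469 FPKM in knockdown and 374, 753 and 408 FPKM in control libraries (−0.18, SE 0.635, adjusted p = 0.874). Rps27l, a p53 target, stood at 417, 412 and 461 FPKM in knockdown and at 387, 539 and 399 FPKM in control libraries (−0.02, adjusted p = 0.932). Without control 11 Rps27 was at 0.13 and Rps27l at 0.13 instead. The further genes chosen for their role lay between 0.14 and 0.27: Rplp1 of the stalk, Rpl11, Rpsa, Rps3, Rps4x of the X chromosome, Rps27a, whose protein is made as a fusion with ubiquitin, and Rps6, the substrate of S6 kinases.

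**Figure D2:**
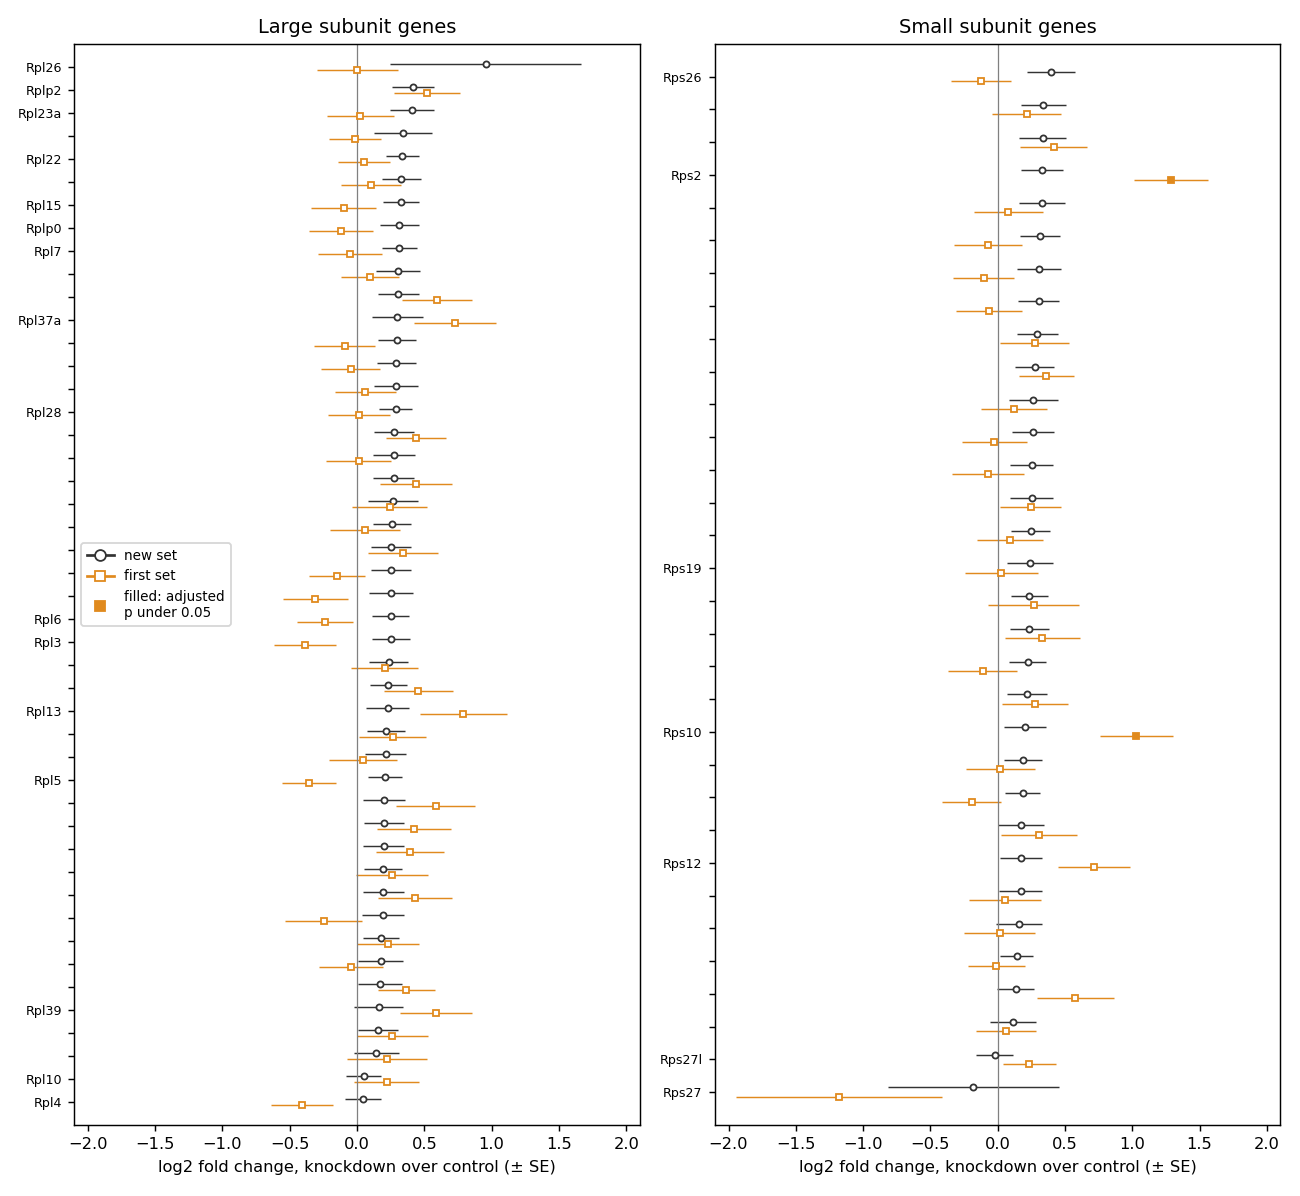
Log2 fold change of each of the 78 tested genes, knockdown over control with its SE, ordered by the new set, with names for genes whose fold changes the text gives; circles are the new set, squares the first set, and filled symbols have an adjusted p under 0.05. New-set values have medians of 0.25 and 0.24 and run from −0.18 (Rps27) to 0.96 (Rpl26). First-set values have medians of 0.10 and 0.085 and run from −1.18 (Rps27) to 1.29 (Rps2). Only Rps2 and Rps10 of the first set are filled.

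In the first set 2 small subunit genes rose, Rps2 and Rps10, and no ribosomal protein gene fell. In that comparison 23.8% of 12461 tested genes were called, 13.2% as higher and 10.7% as lower, so 2 of 78 is far below the background share. Of the large subunit genes 32 of 46 and of the small subunit genes 22 of 32 were above 0, with medians of 0.10 and 0.085, while the median over all tested genes was −0.15. Here 5 of the 78 had an unadjusted limma p under 0.05, below even the 23.8% of all genes that passed after adjustment.

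Rps2 stood at 876 and 582 FPKM in first-set knockdown and at 341 and 249 FPKM in first-set control libraries, or 247% of control. Both knockdown libraries lay above both controls (log2 fold change 1.29, SE 0.276, limma adjusted p = 0.0178). Rps10 stood at 627 and 419 FPKM in knockdown and at 292 and 215 FPKM in control libraries, or 206% of control, again with no overlap (1.03, SE 0.272, adjusted p = 0.0345). Both calls were lost without a filter on low values (adjusted p = 0.0713 and 0.098) and without any 1 of the 4 libraries (adjusted p = 0.0568 to 0.131 for Rps2 and 0.0707 to 0.211 for Rps10). Both were still called when each library was shifted so that the ribosomal protein genes had a median deviation of 0 (adjusted p = 0.00834 and 0.026). That setting, chosen after the data were seen, called 8.63% of all genes as higher.

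With the replicate number as a block, which does not pair these libraries, 5 genes were called (21.8% of all genes): Rps2, Rps10, Rpl13, Rpl37a and Rps12. Rpl13 stood at 2504 and 1743 FPKM in first-set knockdown and at 1557 and 936 FPKM in control libraries (0.79, SE 0.323, adjusted p = 0.116). Rpl37a stood at 1707 and 1027 FPKM in knockdown and at 922 and 691 FPKM in control libraries (0.73, adjusted p = 0.122). Rps12 stood at 657 and 440 FPKM in knockdown and at 372 and 287 FPKM in control libraries (0.72, adjusted p = 0.0902). In each of these 3 genes both knockdown libraries lay above both controls, and knockdown 1 lay well above knockdown 2. Rplp2 stood at 628 and 473 FPKM in knockdown and at 433 and 332 FPKM in control libraries (0.52, adjusted p = 0.158). Rpl39, a short protein of the exit tunnel, stood at 955 and 608 FPKM in knockdown and at 541 and 474 FPKM in control libraries (0.59, adjusted p = 0.150).

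**Figure D3:**
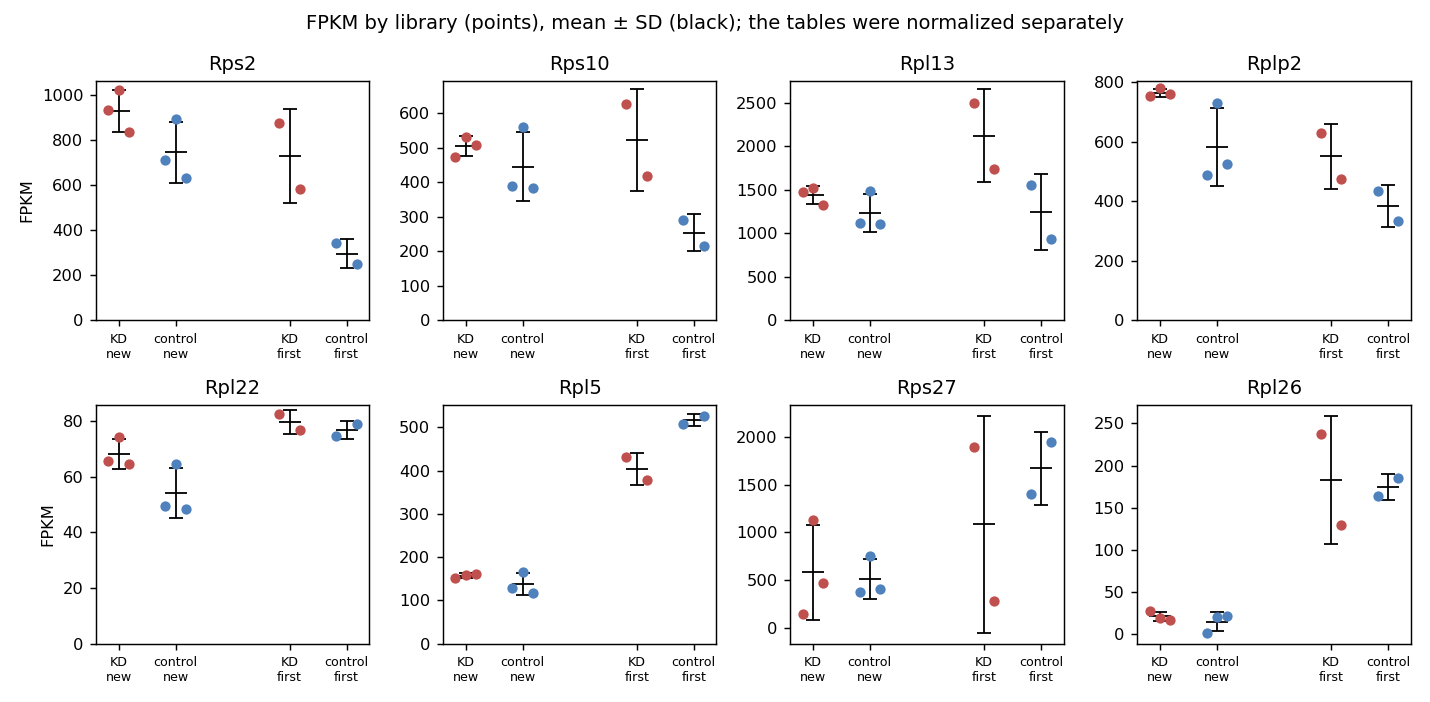
FPKM of 8 ribosomal protein genes in each library (points; red knockdown, blue control) with the mean ± SD of each group (black), new set left and first set right in each panel. Rps2 and Rps10 are above both controls in both first-set knockdown libraries, Rpl5 is below both, and Rps27 spreads from 280 to 1892 FPKM in first-set knockdown libraries.

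In all, 10 large and 7 small subunit genes had both first-set knockdown libraries above both controls, against 27.4% of all tested genes. The reverse held for 5 large subunit genes, among them Rpl3, Rpl4, Rpl5 and Rpl6, and no small subunit gene, against 40.4% of all tested genes. Rpl5 stood at 431 and 378 FPKM in knockdown and at 507 and 527 FPKM in control libraries (−0.36, SE 0.202, adjusted p = 0.227). Rpl3, a protein near the catalytic centre, stood at 1317 and 1078 FPKM in knockdown and at 1616 and 1506 FPKM in control libraries (−0.39, adjusted p = 0.246). Rpl4 stood at 1024 and 793 FPKM in knockdown and at 1152 and 1242 FPKM in control libraries (−0.41, adjusted p = 0.230), and Rpl6 at 630 and 548 FPKM in knockdown and at 680 and 706 FPKM in control libraries (−0.24, adjusted p = 0.424). None of these 4 passed the test, although their groups were apart. Rpl22, which had been apart in the new set, stood at 82.6 and 76.6 FPKM in first-set knockdown and at 74.5 and 79.0 FPKM in first-set control libraries (0.05, adjusted p = 0.860).

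Rps27 had the largest negative value, from 1 library: it stood at 1892 and 280 FPKM in knockdown and at 1405 and 1945 FPKM in control libraries (−1.18, SE 0.765, adjusted p = 0.285). Without knockdown 2 its log2 fold change was 0.19, and without knockdown 1 it was −2.55 (adjusted p = 0.0168). Its relative Rps27l was steadier, with 448 and 406 FPKM in knockdown and 374 and 350 FPKM in control libraries.

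The 2 first-set knockdown libraries differed from each other throughout. Knockdown 1 was above knockdown 2 in all 78 genes, with a median ratio of 1.36. Knockdown 1 lay above both controls in 64 genes, while knockdown 2 lay above both in 17 and below both in 40. Summed, the 81 genes held 88179 and 62729 FPKM in knockdown and 73245 and 65720 FPKM in control libraries, or 15.1% and 12.2% in knockdown and 11.2% and 10.95% in control libraries of all FPKM outside small RNA genes. The large to small ratio was 1.38 and 1.45 in knockdown and 1.39 and 1.38 in control libraries. The small subunit sum of knockdown 2 includes the low Rps27 value of that library (280 FPKM, against 1405 to 1945 FPKM in the others). Without knockdown 1 the medians were −0.04 for the large and −0.14 for the small subunit, and without knockdown 2 they were 0.38 and 0.32. After a correction for transcript length and GC content, chosen after the data were seen, both medians were slightly below 0 (−0.02 and −0.01). The sign of the first-set medians thus depended on knockdown 1 and on this correction. Over all tested genes the median was −0.15 without knockdown 1, −0.17 without knockdown 2 and −0.14 after the correction. With median-of-ratios rescaling 40 of 46 large and 30 of 32 small subunit genes were above 0. Their medians were then 0.28 and 0.26, against 0.014 over all tested genes. The other genes at 100 FPKM or more (959 genes) deviated by −0.057 and −0.23 in knockdown and 0.17 and 0.11 in control libraries. The 1455 other genes with transcripts under 800 nucleotides deviated by 0.075 and −0.064 in knockdown and 0.023 and −0.00082 in control libraries, and the mitochondrial ribosomal protein genes by 0.17 and −0.11 in knockdown and 0.03 and −0.07 in control libraries. The short genes and the mitochondrial ribosomal genes were thus highest in knockdown 1, as the cytosolic ribosomal protein genes were. Cell type markers differed between the knockdown libraries as well. Radial glia genes summed to 1127 FPKM in knockdown 1 and 2284 FPKM in knockdown 2 (median deviations −0.28 and −0.07). Intermediate progenitor genes summed to 1207 and 795 FPKM (0.06 and −0.20) and interneuron genes to 18.1 and 46.2 FPKM (−0.75 and 0.65). Cortical neuron genes summed to 3625 and 3327 FPKM (−0.20 and −0.31). The part of any of these in the ribosomal protein values was not tested.

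**Figure D4:**
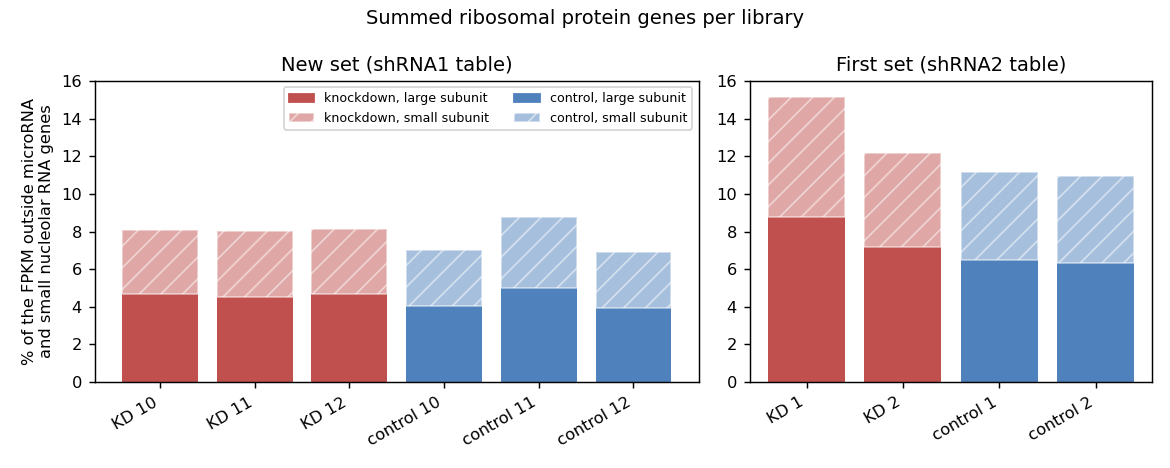
Summed FPKM of the ribosomal protein genes as a percentage of all FPKM outside microRNA and small nucleolar RNA genes, by library; solid bars are the large and hatched bars the small subunit, red knockdown and blue control. New-set knockdown libraries hold 8.01% to 8.14% and control libraries 6.90% to 8.75%; first-set knockdown libraries hold 15.1% and 12.2% and control libraries 11.2% and 10.95%.

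Fold changes of single genes did not follow each other across the sets (Spearman's rho −0.0918 between new-set and first-set log2 fold changes of the 78 genes, which share no library). Nor did they follow transcript length (rho 0.101 in the new and −0.179 in the first set). Genes with the pyrimidine run near the start had a median of 0.24 in the new set (27 genes), as had those without it (30 genes, 0.24), and of 0.23 with and 0.052 without it in the first set, as a description with no test.

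With both sets in 1 fit, 7 ribosomal protein genes rose on the mean of the 2 fold changes and none fell. These were Rplp2, Rpl13, Rpl27a and Rpl37a of the large and Rps2, Rps10 and Rps12 of the small subunit. In this fit 29.9% of 10827 genes were called, 9.37% as higher and 20.5% as lower, so 7 of 78 lies near the background share of higher genes. The mean fold change was 0.81 for Rps2 (SE 0.153, limma adjusted p = 0.00367), 0.62 for Rps10 (SE 0.153, adjusted p = 0.0125) and 0.47 for Rplp2 (SE 0.140, adjusted p = 0.0267). It was 0.51 for Rpl13 (adjusted p = 0.0434), 0.51 for Rpl37a (adjusted p = 0.0485), 0.45 for Rpl27a (adjusted p = 0.0394) and 0.44 for Rps12 (adjusted p = 0.0461). In all 7 the fold change was larger in the first than in the new set, and Rplp2 was the 1 of them whose groups were apart in both. The count depended on single libraries and rose to 24 without control 11. That fit's share of all genes called is not reported here. With the replicate number as a block 14 were called, against 34.1% of all genes.

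The test of the difference between the sets called 1 gene, Rps2, whose fold change was lower in the new than in the first set by 0.96 (log2 difference −0.96, SE 0.306, adjusted p = 0.0332), where 32.5% of all genes were called, 22.5% as higher in the new set and 9.98% as lower. The Rps2 call was lost in 5 of 10 fits without 1 library: new-set knockdown 10 (adjusted p = 0.062) or 12 (0.0732), control 11 (0.0568), first-set knockdown 1 (0.127) or control 2 (0.131). It was also lost with the correction for transcript length and GC content (0.0524). With the replicate number as a block 3 were called, Rps2, Rps10 and Rpl3, against 36.1% of all genes. For Rps10 the difference was −0.83 (SE 0.306, adjusted p = 0.0583) and did not pass, but it passed with the block (0.0156) and when centred on the ribosomal protein genes (0.00839). The standing of Rps2 among the ribosomal protein genes also differed: its mean was 837 FPKM in the new set, where their median was 512 FPKM, and 512 FPKM in the first set, where their median was 707 FPKM.

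Genes that work beside the ribosomal proteins were read from lists. Of 18 translation factors and related genes whose mRNAs also carry an oligopyrimidine tract, all were above 0 in the new set (median 0.22). Their median deviation was 0.13, 0.17 and 0.02 in knockdown and −0.14, 0.11 and −0.19 in control libraries, with control 11 again near the knockdown libraries. The initiation factor gene Eif3l rose (0.36, SE 0.090, adjusted p = 0.0463). As higher 3.84% of all new-set genes were called. Of the 18, 0 rose and 2 fell in the first set (median −0.16), near the 10.7% of all genes called lower there. The 2 were Hnrnpa1, an RNA-binding protein (−0.97, limma adjusted p = 0.0151), and Eif4b, an initiation factor (−0.85, adjusted p = 0.0267). Gene by gene Eef1a1, the most abundant elongation factor, stood at 2014, 2174 and 1787 FPKM in new-set knockdown and at 1638, 1963 and 1310 FPKM in new-set control libraries.

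The 27 other translation factors had 0 called in the new set (median 0.11), where 8.99% of all genes were called. In the first set 8 of 27 fell (median −0.38), where 10.7% of all genes were called lower. Those that fell included Eif3j (−2.38, limma adjusted p = 0.00772) and the ribosome recycling factor Abce1 (−1.29, adjusted p = 0.013). Of the ribosome biogenesis genes, which make and process rRNA, 0 of 40 were called in the new set (median 0.026). Of 41 in the first set, 3 rose and 6 fell (median −0.36). Over all genes there 13.2% were called higher and 10.7% lower, with a median of −0.15. The list thus held more falls than rises, where all genes held more rises than falls. Gar1, part of the particles that place pseudouridine in rRNA, rose (1.44, adjusted p = 0.008), and Rrn3, an initiation factor of RNA polymerase I, fell (−1.25, adjusted p = 0.0152). Both lists had first-set medians below 0, where the ribosomal protein genes had medians of 0.10 and 0.085. The latter turned below 0 without knockdown 1 and after the length and GC correction. Like the ribosomal protein genes, both lists deviated lower in knockdown 2 than in knockdown 1. The deviations were −0.24 against −0.14 for biogenesis genes and −0.23 against −0.12 for the other translation factors.

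The 76 mitochondrial ribosomal protein genes, which serve the separate ribosome of that organelle, had medians of 0.12 in the new set, where 1 rose (Mrps16, 0.47, adjusted p = 0.0458), and of −0.01 in the first set, where 5 rose and 2 fell, below the shares of all genes. Of 20 regulators of these genes and of mTOR signalling, 0 rose and 1 fell in the new set, and 2 rose and 2 fell in the first set. Among all new-set genes 3.84% were called higher and 5.15% lower. For all first-set genes the shares were 13.2% and 10.7%. The regulator list exceeded none of these shares, so the calls of its single genes below do not set it apart from other genes. Myc, a transcription factor that drives ribosomal protein genes, stood at 11.8, 12.9 and 10.4 FPKM in new-set knockdown and at 18.8, 19.2 and 15.3 FPKM in new-set control libraries and fell (−0.56, SE 0.123, adjusted p = 0.033). Myc of the first set stood at 47.6 and 34.9 FPKM in knockdown and at 23.8 and 19.98 FPKM in control libraries and rose (0.87, SE 0.241, adjusted p = 0.0398). Its partner Max fell in the first set (−1.48, adjusted p = 0.0106), and Akt1s1, which holds back mTOR, rose (1.15, adjusted p = 0.0399). Of 10 ribosome rescue genes 1 fell in each set and 0 rose, against the same shares of all genes.

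The 5 ribosomal genes that the symbol rule leaves out were called in neither set. Fau, whose product is the small subunit protein eS30 fused to a ubiquitin-like part, stood at 493, 523 and 490 FPKM in new-set knockdown and at 328, 477 and 339 FPKM in new-set control libraries, every knockdown library above every control and control 11 the nearest (0.42, adjusted p = 0.110). Rpl22l1, the paralog of Rpl22, had −0.07 in the new set (adjusted p = 0.801).

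Some cell type markers moved with the groups beside these results, and their part in the ribosomal protein values was not tested. Of the new-set markers, 6 of 14 cortical neuron genes rose and 8 of 16 radial glia, 3 of 10 intermediate progenitor and 5 of 5 interneuron genes fell, where 3.84% of all genes were called higher and 5.15% lower. The interneuron genes summed to 9.18 to 9.29 FPKM in knockdown and 18.6 to 27.6 FPKM in control libraries. Erythroid genes, of which 2 of 5 fell, summed to 23.6 to 115 FPKM in new-set knockdown and to 149 to 280 FPKM in new-set control libraries, and were highest in control 11. Of the 14 cortical neuron genes 6 fell in the first set (3327 to 3625 FPKM summed in knockdown, 4848 to 5310 FPKM in control libraries). Other first-set lists did not part the groups, as the knockdown sums spanned the control sums. Radial glia genes summed to 1127 to 2284 FPKM in knockdown and 1885 to 1984 FPKM in control libraries. For intermediate progenitor genes this was 795 to 1207 and 811 to 912 FPKM. Interneuron genes had 18.1 to 46.2 and 22.9 to 44.6 FPKM, and erythroid genes 1.41 to 43.3 and 16.6 to 19.0 FPKM. In the same set 4 of 6 microglia genes rose, with sums of 13.1 to 23.3 FPKM in knockdown and 1.39 to 5.28 FPKM in control libraries. Lists of other non-neural cells were also higher in first-set knockdown libraries: meninges genes, of which the 1 tested rose, summed to 5.88 to 9.59 FPKM in knockdown and 0.742 to 0.928 FPKM in control libraries, and choroid plexus genes, of which the 1 tested rose, to 3.59 to 6.12 FPKM in knockdown and 0.152 to 1.07 FPKM in control libraries. Endothelium genes summed to 3.48 to 9.39 FPKM in knockdown and 1.39 to 3.88 FPKM in control libraries, and neither of the 2 tested was called. Olfactory receptor genes, which cortex does not use, averaged 0.672 and 0.557 FPKM per gene in these knockdown libraries. In first-set control libraries they averaged at most 0.00817 FPKM. The part of this background in the sums of these lists, which hold 5 to 7 genes each, was not tested. Called as higher were 13.2% and as lower 10.7% of all first-set genes.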

How the data were processed

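RNA from sorted cells was purified with an RNeasy Plus kit and made into libraries with a low-input kit from Clontech, per the labels' protocols. TopHat2, Bowtie, Cufflinks 2.0.0, Cuffdiff and the build mm9 are named in the submitters' processing notes. Annotation, read filters and strand setting: not given in the sources used here. The authors deposited FPKM, 1 table per set, so comparisons were made within a table. Absolute depth is unknown and relative depth was read from the lowest values.

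FPKM were transformed to log2(FPKM + 1), a scale that understates changes of low genes. Genes averaging 1 FPKM or more in a table were fitted with limma 3.58.1 (R 4.3.3; trend, two-sided), Benjamini-Hochberg adjusted over all tested genes and called at an adjusted p under 0.05. A joined fit gave the mean of both fold changes and their difference. The script was tested on simulated data. Libraries of the same number were paired by their deviations in the new set (r = 0.122, 0.242 and 0.193 across genes) and not in the first (−0.0285). Replicates are separate pools of embryos. Alternatives were other pseudocounts, filters, scalings, a block and leaving out each library. Where an arm keeps 1 library, it is assumed to vary like the others. The genes, lists and naming rule (called genes, the most abundant, the largest changes, and fixed roles) were chosen with earlier results of these data known. Genes named beyond that rule were chosen after their values were seen. Rps4l, which the naming rule lists, was not analysed here, and some results for single genes are not reported here. Promoters are RefSeq sequences, and no position was read from the mm9 files. Drawing used matplotlib 3.10.9.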

Additional observations from a re-analysis of the deposited data

Results flagged for a closer look

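The fold change of Rps2 differed between the sets by a test of the difference itself: the new-set log2 fold change minus the first-set one was −0.96 (SE 0.306, limma adjusted p = 0.0332). The call was lost in 5 of 10 fits that left out 1 library (adjusted p = 0.0568 to 0.131 in those). Rps2 was above both controls in 2 of 2 first-set knockdown libraries and above every control in 2 of 3 new-set knockdown libraries. Effects of shRNA, batch and table on this difference cannot be told apart.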

How the results depend on the processing

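Of 78 ribosomal protein genes 0 were called in the new set under each alternative except the replicate block (1) and the fit without control 11 (leave-one-out range 0 to 66). The medians of both subunits stayed above 0 there, at 0.16 to 0.41 (large) and 0.14 to 0.40 (small) with 1 library left out and at 0.075 and 0.037 after quantile normalization. In the first set, where 2 were called, the count was 0 without a filter on low values, 10 after rescaling to the total outside small RNA and ribosomal protein genes, 7 after quantile normalization, 5 with the replicate block (whose numbers do not pair the libraries there) and 0 to 1 with 1 library left out, the 1 being Rps27, lower. Over all first-set genes 13% were called without a filter, 18.6% after rescaling to the total, 15% after quantile normalization and 21.8% with the block. In those settings the count of ribosomal protein genes lay below the share of all genes. The large subunit median was 0.34 after the rescaling to the total, and −0.042 to 0.38 with 1 library left out. The small subunit's range was −0.14 to 0.32. For the mean of both sets (7 called) the count was 4 without a filter, 11 with median-of-ratios rescaling, 22 with rescaling to the total, 19 with quantile normalization, 14 with the replicate block and 1 to 24 with 1 library left out. For the difference (1 called) it was 2 without a filter, 2 with median-of-ratios rescaling, 7 with rescaling to the total, 13 with quantile normalization, 3 with the replicate block, 7 with the correction for transcript length and GC content, 3 when centred on the ribosomal protein genes and 0 to 7 with 1 library left out. Over all genes, 1015 calls in the new set became 470 without a filter, 2452 with the block, 1589 with the length and GC correction, 369 when centred and 88 to 1883 with 1 library left out. In the first set 2971 became 1602 at a mean of at least 5 FPKM, 1865 with quantile normalization, 1551 when centred and 713 to 1247 with 1 library left out. On the mean, alternatives other than leaving out a library called 2439 to 5917 genes, the most without a filter, against 3238 as reported. On the difference they called 721 when centred to 6345 without a filter, against 3520 as reported. Shares of all genes for the other settings of the mean and the difference are not reported here. Of all first-set calls 55.2% were higher, with 31.3% at 5 FPKM and 84.2% after rescaling to the total, and of all new-set calls 42.8% were higher, with 19.4% after that rescaling and 6.5% when centred. Direction turned for genes that were not called: Rpl10 in the new set at −0.076 (rescaling to the total), −0.14 (quantile) and −0.022 to 0.18 with 1 library left out; Rpl4 in the new set at −0.080, −0.15 and −0.069 to 0.16; Rpl39 in the new set at −0.032 (quantile). With 1 library left out, new-set Rpl26 ranged from −0.030 to 1.45, Rps27 from −0.88 to 0.58 and Rps27l from −0.11 to 0.13, and first-set Rps27 from −2.55 to 0.19 and Rpl22 from −0.0022 to 0.11; first-set Rpl6 was at 0.00060 after rescaling to the total. Causes were not tested. With 2 libraries per group the median SE of the ribosomal protein genes in the first set was 0.24 (large) and 0.26 (small). The smaller change of the 2 called among them was 1.03 (Rps10).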
